A study of Homo sapiens with 9 samples.

Results

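The genes described here were 10 regulators of mitochondrial cell death and mitochondrial clearance, BCL2, BCL2L1, MCL1, BAX, BCL2L11, PMAIP1, BBC3, BID, BNIP3 and BNIP3L. They were chosen by name, and all 10 were present among the 38021 genes counted. The RNA came from 786-O, an established human line of clear cell renal carcinoma origin without working VHL, in which HIF2α escapes degradation at normal oxygen. The cells had been infected with a lentivirus carrying an shRNA that was a control (shControl) or that targeted ARNT (shARNT) or BMAL1 (shBMAL1), and all groups were selected and kept in puromycin. There were 3 libraries per group, given in the labels as biological replicates. The labels do not say whether these came from separate infections, so the p values measure the spread between these libraries. ARNT is the usual partner of HIF2α on DNA and BMAL1 is its relative from the circadian clock. The knockdowns thus compare transcripts between cells in which either was targeted. Effects of an shRNA on other transcripts cannot be told apart here from those of losing its target.

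Proteins of the BCL2 family decide whether the outer mitochondrial membrane stays intact. The guardians (BCL2, BCL-XL from BCL2L1, and MCL1) hold the pore-forming effectors such as BAX in check, and the BH3-only proteins (BIM from BCL2L11, NOXA from PMAIP1, PUMA from BBC3, and BID) bind guardians, effectors or both and so favour release of cytochrome c. BNIP3 and its close relative BNIP3L (NIX) sit in the same membrane, share a BH3-like stretch with the family, and act chiefly as mitophagy receptors that tether mitochondria to LC3 and GABARAP proteins on the forming autophagosome. Both are well known as genes that hypoxia and HIF induce.

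Under shARNT, 1 of the 10 transcripts was lower and 1 higher than in shControl, beside 19.0% lower and 16.5% higher of all genes tested. Under shBMAL1, 3 were lower and 4 higher, beside 19.4% and 17.4% of all genes. BCL2L11 was higher and PMAIP1 lower in both knockdowns. BNIP3, BCL2 and BBC3 were higher and BAX and BID lower under shBMAL1. None of these 5 was called under shARNT, and each also differed between shBMAL1 and shARNT, where 3 of the 10 were lower and 4 higher (18.0% and 17.3% of all genes). BNIP3L, BCL2L1 and MCL1 were called in no comparison. A gene was called at a DESeq2 adjusted p under 0.1 (Benjamini-Hochberg over all genes tested), and differences are given as log2 fold changes beside the standard error (SE). The shControl libraries serve in the comparison of either knockdown, so the 2 comparisons against control are not independent. In bulk RNA, less RNA per cell and fewer cells with that RNA cannot be told apart.

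Library totals lay, rounded, between 33793000 and 35444700 reads, and the 10 genes together took 0.0602% to 0.0671% of them. ARNT had 2187, 2551 and 2318 normalised counts in shControl and 1239, 1238 and 1199 in shARNT (log2 fold change −0.94, SE 0.07, DESeq2 adjusted p 8.81e-35). BMAL1, listed as ARNTL, had 752, 797 and 735 normalised counts in shControl and 346, 292 and 339.8 in shBMAL1 (log2 fold change −1.23, SE 0.11, DESeq2 adjusted p 2.51e-25). Both targets were thus reduced and not removed. The other target was called lower as well, ARNT by −0.23 in shBMAL1 (adjusted p 0.0187) and ARNTL by −0.26 in shARNT (adjusted p 0.0294). Each of these side calls was lost on removing shControl replicate 2 (adjusted p 0.162 and 0.15), that of ARNT also on removing shBMAL1 replicate 2 (0.109) and that of ARNTL on removing shARNT replicate 3 (0.22). The renal markers PAX8, PAX2, KRT8, KRT18, VIM and EPAS1 were detected in every library, and several moved with the groups without overlap. In shBMAL1 against shControl, PAX8 went from 9453 to 10477 normalised counts down to 6884 to 7599, KRT18 from 4575 to 4942 down to 3250.2 to 4012, KRT8 from 14834 to 15935 down to 13033 to 14771, VIM from 96420.1 to 99638 down to 78532 to 88407, and PAX2 from 601 to 636 up to 761.9 to 893. In shARNT, KRT8 was above shControl at 18731 to 19178, VIM lay at 85278 to 87743 and EPAS1 went from 10764 to 11766 down to 8767 to 9920.3. The part of these shifts in the results was not tested. Of the blood and endothelial markers, CD3E and CDH5 were at 0 throughout, PTPRC and VWF reached at most 3.00 counts, PECAM1 lay between 2.01 and 8.95, while CD68 was present throughout, at 7114 to 7882 in shControl, 6729 to 7339.6 in shARNT and, without overlap with shControl, 5325 to 6732 in shBMAL1. Mitochondrially encoded transcripts took 5.46% to 7.14% of reads in shControl, 7.59% to 8.74% in shARNT and 8.71% to 9.66% in shBMAL1. The part of this share in the differences between groups was not tested.

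The stretches upstream of 4 members are shown because BMAL1 with CLOCK binds the E-box CACGTG and HIF dimers bind ACGTG or GCGTG, and these 4 genes moved in different ways. They are the bases before the transcription start in RefSeq promoter windows, placed on GRCh37 by exact match and trimmed of annotated exons, written 5′ to 3′ on the gene's strand. Capitals mark CACGTG.
BNIP3, chr10:133795472-133795677, minus strand: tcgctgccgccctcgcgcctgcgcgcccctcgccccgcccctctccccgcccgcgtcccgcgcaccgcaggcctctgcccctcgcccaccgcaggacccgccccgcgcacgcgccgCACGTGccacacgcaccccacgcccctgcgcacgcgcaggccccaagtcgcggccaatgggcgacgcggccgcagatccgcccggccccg
BAX, chr19:49457882-49458071, plus strand: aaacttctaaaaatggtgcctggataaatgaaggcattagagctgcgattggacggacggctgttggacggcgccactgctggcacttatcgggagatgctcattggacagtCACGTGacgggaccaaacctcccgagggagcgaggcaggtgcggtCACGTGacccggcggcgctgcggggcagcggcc
BCL2L11, chr2:111878241-111878490, plus strand: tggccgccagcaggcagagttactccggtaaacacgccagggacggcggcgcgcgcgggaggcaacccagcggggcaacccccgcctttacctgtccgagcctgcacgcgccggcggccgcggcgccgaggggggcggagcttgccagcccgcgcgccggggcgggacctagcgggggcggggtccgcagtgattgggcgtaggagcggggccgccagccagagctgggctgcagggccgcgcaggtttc
PMAIP1, chr18:57566978-57567227, plus strand: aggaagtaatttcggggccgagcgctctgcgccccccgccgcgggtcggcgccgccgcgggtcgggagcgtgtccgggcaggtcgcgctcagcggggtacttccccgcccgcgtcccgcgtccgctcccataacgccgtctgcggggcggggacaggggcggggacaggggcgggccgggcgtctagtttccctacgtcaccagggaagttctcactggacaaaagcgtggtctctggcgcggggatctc

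The BNIP3 stretch held 1 CACGTG, 134 bases before the start. The BAX stretch held 2, at 138 and 93 bases before the start, and its whole window of 250 bases before and 50 after the start held 4. No CACGTG and no ACGTG lay in the windows of BCL2L11 and PMAIP1, nor in those of BCL2 and BCL2L1, and the BBC3 window held 1 CACGTG. BID had 5 windows for its alternative starts, of which 2 held 1 each. Among all 35116 RefSeq windows of this length on GRCh38.p14, searched on both strands, 7.26% held CACGTG, 21.4% ACGTG and 36.5% GCGTG, and each CACGTG contains an ACGTG on either strand. GCGTG was found in the windows of BNIP3, BCL2L11 and PMAIP1, in 1 of the 2 BCL2L1 windows and in 2 of the 5 BID windows. BNIP3 and BAX, which both hold the E-box, moved in opposite directions under shBMAL1, and a match of letters says nothing of binding in these cells. Windows were used for 8 of the 10 genes.

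To set the genes beside each other, normalised counts were divided by the length of each gene's merged exons. In shControl, BAX (1944 ± 37.6 counts per kilobase; SD, n = 3) and BCL2L1 (1876 ± 45.4) stood highest, with ranges that overlapped. BNIP3L (422 ± 37.8) and MCL1 (389 ± 5.34) followed and also overlapped. BID (299.9 ± 11.9) lay above BNIP3 (232 ± 9.26) and PMAIP1 (223 ± 10.6), which overlapped each other, and BCL2L11 (194 ± 12.9) was next. BBC3 (55.1 ± 6.01) and BCL2 (11.1 ± 1.11) were the lowest, so BCL2, for which the family is named, was the least abundant of the 10 transcripts per length. BCL2L11 moved from 8th in this order in shControl to 5th in shARNT (335 ± 7.82 counts per kilobase), where its range overlapped that of BID and the longest transcript as gene length placed it 6th, and 3rd in shBMAL1 (444 ± 36.4), where its range overlapped that of BNIP3L. The order of BCL2L1 and BAX in shBMAL1 depended on the length used. Per kilobase of merged exon BCL2L1 (1943 ± 40.5) lay above BAX (1633 ± 153), and per kilobase of the longest transcript BAX (3111 ± 291) lay above BCL2L1 (2504 ± 52.2), in both cases without overlap.

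**Figure D1:**
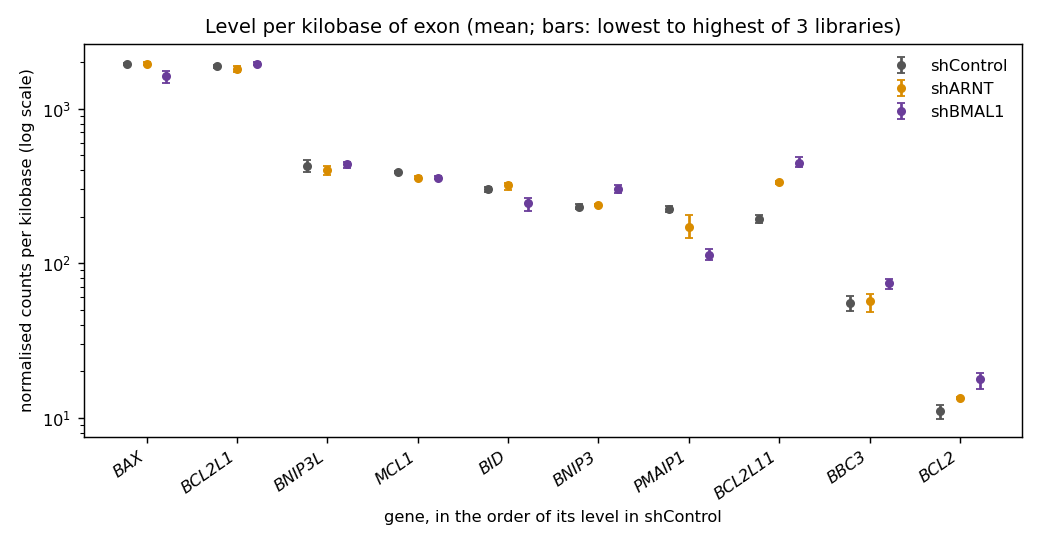
Level of each gene in normalised counts per kilobase of merged exon (log axis), for shControl (grey), shARNT (orange) and shBMAL1 (purple); points are means and bars run from the lowest to the highest of 3 libraries. BAX and BCL2L1 lead at 1944 and 1876 in shControl and BCL2 is lowest at 11.1, while BCL2L11 climbs from 194 to 335 and 444.

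The absolute log2 fold change of the 10 genes had a median of 0.08 under shARNT, beside 0.18 over all genes tested, and 0.34 under shBMAL1, beside 0.29. In shBMAL1 against shARNT it was 0.37, beside 0.25.

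**Figure D2:**
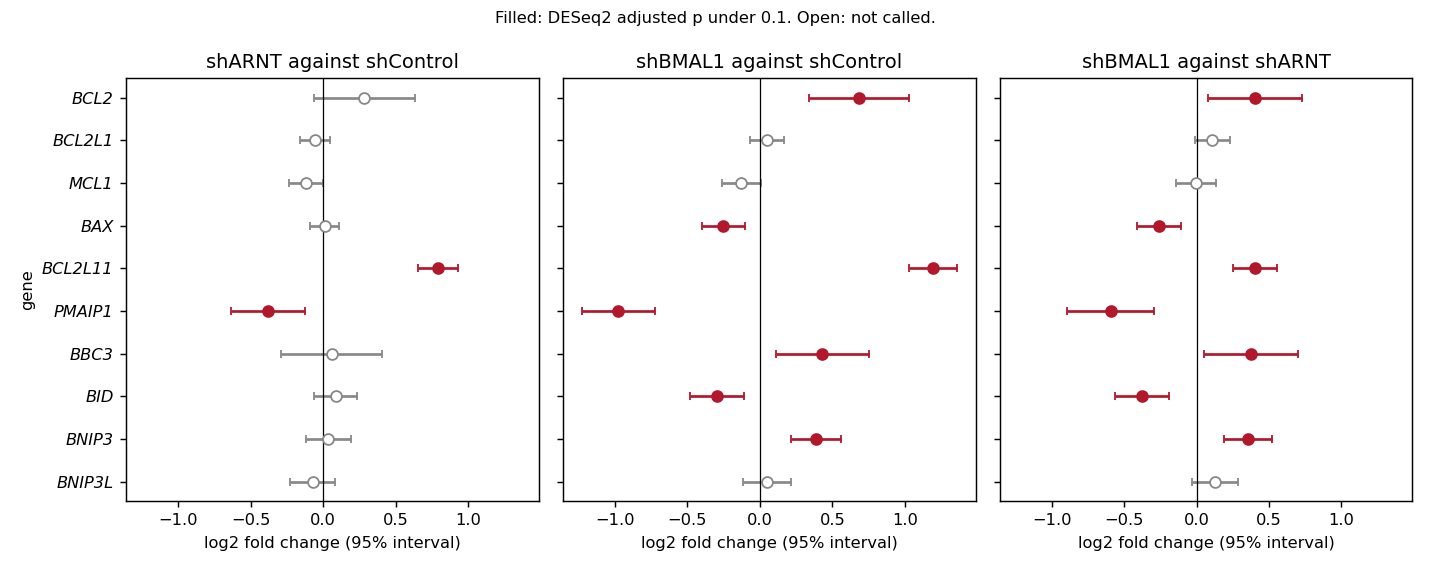
Log2 fold change of the 10 genes (rows) in each of 3 comparisons (panels), with 95% intervals from the DESeq2 standard error; filled points were called at an adjusted p under 0.1. Only BCL2L11 (0.79) and PMAIP1 (−0.38) are filled for shARNT, while 7 genes are filled for shBMAL1 and 7 for shBMAL1 against shARNT.

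The BH3-only genes held the largest changes. BCL2L11 (chr2:111876955-111926021, plus strand) encodes BIM, which binds every guardian and can also engage BAX directly. Its normalised counts were 1391, 1315 and 1217 in shControl, 2293, 2199 and 2287 in shARNT, and 2804, 3271 and 2907 in shBMAL1. The 3 groups did not overlap, with shControl lowest and shBMAL1 highest in every library. BCL2L11 was 1.73-fold higher under shARNT (log2 fold change 0.79, SE 0.07, DESeq2 adjusted p 4.28e-27) and 2.29-fold higher under shBMAL1 (1.19, SE 0.09, adjusted p 2.17e-42). The difference between the knockdowns passed the test as well (0.41, SE 0.08, adjusted p 2.14e-06). Its exons share 727 bases with MIR4435-2HG, a noncoding gene on the opposite strand, and whether the counting used strand was not stated. MIR4435-2HG went the other way, with 2674 to 2970.3 normalised counts in shControl, 2164 to 2270.3 in shARNT and 1704 to 1902 in shBMAL1.

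PMAIP1 (chr18:57567228-57571537, plus strand) encodes NOXA, which binds MCL1 above all. It had 479, 514 and 470.1 normalised counts in shControl, 358, 445 and 319 in shARNT, and 245, 228 and 271 in shBMAL1. No group overlapped another, although shARNT replicate 2 lay close to the controls. Under shBMAL1 the log2 fold change of PMAIP1 was −0.98 (SE 0.13, DESeq2 adjusted p 9.62e-13), to 0.508 of the control level. Under shARNT it fell by 0.38 (SE 0.13, adjusted p 0.0148), and this call rested on shARNT replicate 3, without which the log2 fold change was −0.28 (adjusted p 0.153). PMAIP1 was also lower in shBMAL1 than in shARNT (−0.59, SE 0.15, adjusted p 0.000683).

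BID (chr22:18216904-18257536, minus strand) links death receptors to mitochondria once caspase-8 has cut its protein. Normalised counts of BID were 1272, 1377 and 1328 in shControl, 1455, 1449 and 1311 in shARNT, and 1115, 957 and 1170.2 in shBMAL1. Every shBMAL1 library lay below all others, and the ranges of shControl and shARNT overlapped. BID was lower under shBMAL1 than in control (log2 fold change −0.30, SE 0.09, DESeq2 adjusted p 0.00725) and than in shARNT (−0.38, SE 0.09, adjusted p 0.000434). Under shARNT the difference from control was 0.09 with a 95% interval of −0.06 to 0.24 (adjusted p 0.43).

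BBC3 (chr19:47724079-47736023, minus strand) encodes PUMA, which like BIM binds all guardians. It was counted at 194, 156 and 176 in shControl, 154, 191 and 201 in shARNT, and 215, 251 and 244 in shBMAL1. The shBMAL1 libraries were the highest, and shControl and shARNT overlapped. BBC3 was higher under shBMAL1 than in control (log2 fold change 0.43, SE 0.16, DESeq2 adjusted p 0.0306), but the call was lost without shControl replicate 2 (0.35, adjusted p 0.158), shBMAL1 replicate 2 (0.39, adjusted p 0.141) or shBMAL1 replicate 3 (0.41, adjusted p 0.114). Against shARNT it was higher by 0.38 (SE 0.17, adjusted p 0.0709), and this call was lost on leaving out shARNT replicate 1 (0.27, adjusted p 0.329), shARNT replicate 2 (0.41, adjusted p 0.122), shBMAL1 replicate 2 (0.33, adjusted p 0.225) or shBMAL1 replicate 3 (0.36, adjusted p 0.196). Under shARNT the estimate was 0.06, with an interval of −0.29 to 0.40 (adjusted p 0.858).

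The 4 BH3-only transcripts therefore differed more in make-up than in sum. Their summed level in counts per kilobase was 772 ± 19.6 for shControl, 881 ± 36.4 for shARNT and 876 ± 25.4 for shBMAL1 (SD, n = 3). BCL2L11 made up 24.0% to 26.6% of this sum in the shControl libraries, 35.5% to 40.2% in shARNT and 48.1% to 54.8% in shBMAL1. PMAIP1 made up 28.3% to 29.7%, 17.3% to 22.2% and 11.8% to 13.8% in the same order, and neither gene's ranges overlapped between groups. BID, which held 37.2% to 40.0% of the sum in shControl, held 24.5% to 29.7% in shBMAL1. With 3 libraries against 3, an exact permutation test cannot give a p below 0.1, so these shares stand as a description.

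**Figure D3:**
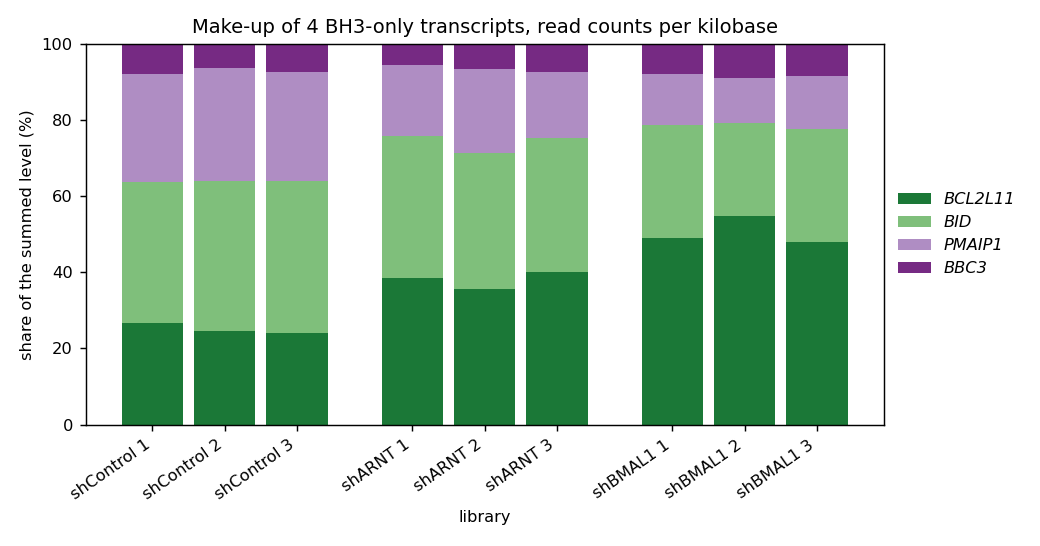
Share (%) of BCL2L11, BID, PMAIP1 and BBC3 in the summed level per kilobase of these 4 BH3-only genes, 1 stacked bar for each of 9 libraries. The BCL2L11 share is 24.0% to 26.6% in shControl, 35.5% to 40.2% in shARNT and 48.1% to 54.8% in shBMAL1, and the PMAIP1 share shrinks in the same order of groups.

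Among the guardians, only BCL2 was called. BCL2 (chr18:60790579-60987361, minus strand) had 152, 142 and 124 normalised counts in shControl, 166, 171 and 171 in shARNT, and 236, 244 and 193 in shBMAL1. The groups did not overlap, and shBMAL1 replicate 3 was nearest to the shARNT libraries. BCL2 was 1.61-fold higher under shBMAL1 than in control (log2 fold change 0.68, SE 0.18, DESeq2 adjusted p 0.00071). Under shARNT the estimate was 0.28 with an interval of −0.07 to 0.63, which was not called (adjusted p 0.244). The direct comparison of the knockdowns gave 0.41 (SE 0.17, adjusted p 0.0484), and this call was lost on leaving out any of shARNT replicates 1, 2 and 3 or shBMAL1 replicates 1 and 2, with log2 fold changes of 0.34 to 0.41 and adjusted p values of 0.124 to 0.208.

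BCL2L1 (chr20:30252255-30311792, minus strand) was the most abundant guardian, at 7983, 7654 and 7986 normalised counts in shControl, 7531, 7882 and 7245 in shARNT, and 8346, 8102 and 8019 in shBMAL1. The shBMAL1 libraries were marginally the highest, but no difference was called, with estimates of −0.06 under shARNT (95% interval −0.16 to 0.04, DESeq2 adjusted p 0.458) and 0.05 under shBMAL1 (−0.07 to 0.16, adjusted p 0.6). In shBMAL1 against shARNT the estimate was 0.11 (−0.01 to 0.23, adjusted p 0.182). BCL2L1 shares 1735 exonic bases with the antisense gene ABALON, counted at 3121 to 3736 in the 9 libraries, so the reads of this locus cannot be parted with certainty. BCL2L1 made up 82.4% (shControl), 82.9% (shARNT) and 83.8% (shBMAL1) of the summed guardian level per kilobase. BCL2 made up 0.486%, 0.618% and 0.767% in the same order.

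MCL1 (chr1:150533371-150552214, minus strand), a guardian whose protein turns over quickly, had 2421, 2391 and 2458 normalised counts in shControl, 2198, 2194 and 2286 in shARNT, and 2187, 2194 and 2278 in shBMAL1. All 6 knockdown libraries lay below the 3 controls, and the knockdowns overlapped each other. The differences were small and missed the threshold, at −0.12 under shARNT (SE 0.06, DESeq2 adjusted p 0.124) and −0.13 under shBMAL1 (SE 0.07, adjusted p 0.153). They passed it in 1 other setting each, with TMM size factors under shARNT (−0.13, adjusted p 0.0948) and in a fit of all 9 libraries under shBMAL1 (−0.13, adjusted p 0.0998). Between the knockdowns the estimate was −0.01, with an interval of −0.14 to 0.13. MCL1 shares 43 and 328 exonic bases with ADAMTSL4 and ADAMTSL4-AS1. ADAMTSL4 had at most 69.4 counts and ADAMTSL4-AS1 fewer still, and reads within the shared bases were not counted separately.

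BAX (chr19:49458072-49465055, plus strand), the pore-forming effector, was lower under shBMAL1. Its normalised counts were 5082, 4917 and 5089 in shControl, 5021, 5185 and 4955 in shARNT, and 4408, 4495 and 3771 in shBMAL1. The shBMAL1 libraries lay below all others, replicate 3 the furthest, and shControl and shARNT overlapped. The log2 fold change was −0.25 against control (SE 0.08, DESeq2 adjusted p 0.00421) and −0.26 against shARNT (SE 0.08, adjusted p 0.00338), and both calls held on leaving out each library in turn. Under shARNT the estimate was 0.01, with an interval of −0.09 to 0.11 (adjusted p 0.918).

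**Figure D4:**
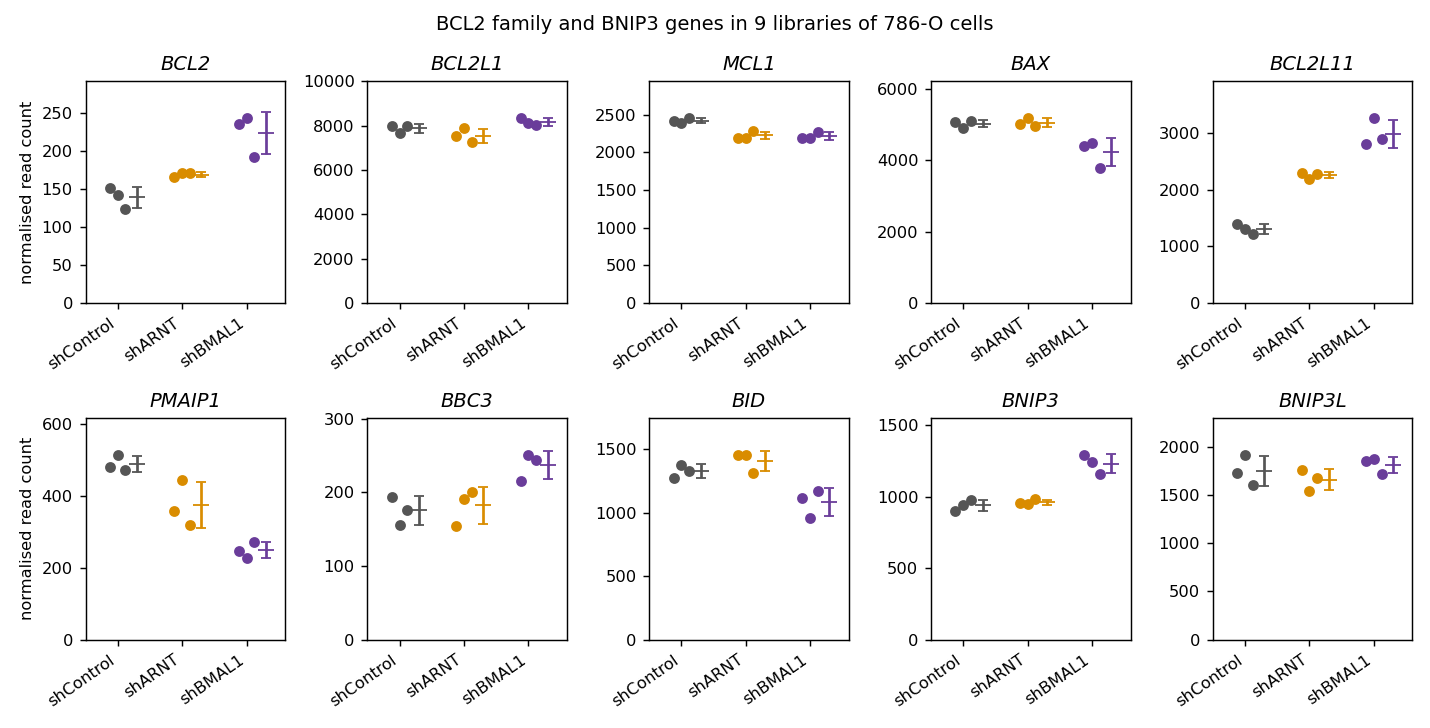
Normalised read count (axis from 0) of the 10 genes in the 9 libraries; points are libraries of shControl (grey), shARNT (orange) and shBMAL1 (purple), and the bar beside them is the mean with its SD. The 3 groups of BCL2L11 (1217 to 1391, 2199 to 2293 and 2804 to 3271) and of PMAIP1 do not overlap, whereas BNIP3L overlaps in all 3 groups.

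The mitophagy receptors did not move alike. BNIP3 (chr10:133781188-133795471, minus strand) had 902, 939.7 and 977 normalised counts in shControl, 952, 949.6 and 981 in shARNT, and 1293, 1239.6 and 1157 in shBMAL1. The shBMAL1 libraries lay above all the others, while shControl and shARNT overlapped. BNIP3 was 1.31-fold higher under shBMAL1 than in control (log2 fold change 0.39, SE 0.09, DESeq2 adjusted p 8.17e-05) and 1.28-fold higher than in shARNT (0.35, SE 0.09, adjusted p 0.000252). Under shARNT the estimate was 0.04, with an interval of −0.12 to 0.19 (adjusted p 0.799). The annotation lists 44 BNIP3 pseudogenes, of which 0 have a row in the count table, so reads from such copies could have been counted as BNIP3 or lost.

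BNIP3L (chr8:26240570-26363152, plus strand) had 1732, 1918 and 1606 normalised counts in shControl, 1761, 1547 and 1676 in shARNT, and 1855, 1872 and 1720.5 in shBMAL1. The 3 groups overlapped, and no difference was called. The estimates were −0.07 under shARNT (95% interval −0.23 to 0.08, DESeq2 adjusted p 0.549), 0.05 under shBMAL1 (−0.12 to 0.22, adjusted p 0.731) and 0.13 for shBMAL1 against shARNT (−0.03 to 0.29, adjusted p 0.251). BNIP3 made up 33.4% to 38.4% of the level per kilobase of the pair in shControl, 35.6% to 38.6% in shARNT and 40.4% to 41.7% in shBMAL1. BNIP3L shares 330 exonic bases with PNMA2 on the opposite strand, which had 53.7 to 175 counts.

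The genes whose pattern was most like that of BNIP3 were sought among the 11822 genes whose mean normalised count was 100 or more, by Pearson's r of log2(normalised count + 1) over the 9 libraries. These were NT5DC2, PIGM, FAM234A, LGMN and NEFL, with r of 0.98 for each. For BNIP3L they were LINC01123, SOD1, RNF103-CHMP3, RAD51C and LIMS2, with r of 0.87 to 0.92. The libraries fall into 3 groups and share their group's treatment, so these values describe likeness only and carry no test.

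Of 15 other genes of the BCL2 family, 11 were tested under shARNT, with 2 lower and 3 higher (19.0% and 16.5% of all genes), and 12 under shBMAL1, with 4 lower and 1 higher (19.4% and 17.4%). Against shARNT, shBMAL1 had 4 lower and 2 higher of 12 (18.0% and 17.3%). With so few genes these counts are not set apart from those shares. BMF, a BH3-only gene, had 177, 124 and 115 normalised counts in shControl, 180.3, 174 and 163 in shARNT, and 319, 310.4 and 275 in shBMAL1. BMF was thus highest in shBMAL1 in every library, by 1.12 over control (SE 0.18, DESeq2 adjusted p 7.19e-09) and by 0.80 over shARNT (SE 0.15, adjusted p 1.29e-06). The effector BAK1 was lower under shBMAL1 (log2 fold change −0.40, adjusted p 0.00323), as was its relative BOK (−0.37, adjusted p 0.0507), although the call for BOK was lost without shControl replicate 2 or 3 or shBMAL1 replicate 1 or 2 (−0.30 to −0.37, adjusted p 0.122 to 0.241).

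Under shARNT, BCL2L13, a mitochondrial family member known as a mitophagy receptor, rose by 0.16 (DESeq2 adjusted p 0.0115). BNIP1 (log2 fold change 0.37, adjusted p 0.028) and BCL2L12 (−0.21, adjusted p 0.0435) were called too, but each lost its call without shARNT replicate 1 (adjusted p 0.18 and 0.234) or 3 (0.146 and 0.153), and BCL2L12 also without shControl replicate 1 (0.1001) or 3 (0.209). Between the knockdowns, BNIP1 was lower in shBMAL1 (−0.73, adjusted p 4.96e-05), with −0.36 for shBMAL1 against control (adjusted p 0.0705). BCL2L2, the guardian BCL-W, was called in neither knockdown against control (adjusted p 0.767 and 0.181). The difference of shBMAL1 from shARNT was −0.43 (adjusted p 0.0575), a call lost on leaving out any 1 of the 6 libraries (adjusted p 0.101 to 0.226).

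The autophagy machinery to which BNIP3 and BNIP3L couple was measured with 25 genes, of which 24 were tested in each comparison. Under shARNT 5 were lower and 4 higher (19.0% and 16.5% of all genes), under shBMAL1 6 and 6 (19.4% and 17.4%), and in shBMAL1 against shARNT 5 and 6 (18.0% and 17.3%). These counts lie near the shares over all genes and are no result about the list, so the genes below are described singly. SQSTM1, the ubiquitin-binding cargo receptor p62, had 16506, 17109 and 17642 normalised counts in shControl, 29809, 29282 and 26825 in shARNT, and 15430.0, 14693 and 14991 in shBMAL1. The shARNT libraries stood far above the rest. SQSTM1 was 1.68-fold higher under shARNT (log2 fold change 0.75, SE 0.05, DESeq2 adjusted p 4.09e-43) and lower in shBMAL1 than in shARNT (−0.93, SE 0.06, adjusted p 3.24e-48). Under shBMAL1 it differed from control by −0.19 (adjusted p 0.0066).

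GABARAP, an ATG8 protein on the autophagosome that mitophagy receptors bind, had 3410.0, 3799.7 and 3588 normalised counts in shControl, 4586, 5273 and 4515 in shARNT, and 6693, 5483 and 4931 in shBMAL1. All knockdown libraries lay above the controls. It was higher by 0.42 under shARNT (SE 0.07, DESeq2 adjusted p 2.94e-08) and by 0.66 under shBMAL1 (SE 0.10, adjusted p 8.49e-11). Its relative GABARAPL1 was higher under shBMAL1 than in control (0.57, SE 0.11, adjusted p 1.45e-06) and than in shARNT (0.54, SE 0.09, adjusted p 1.8e-07).

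PINK1, the kinase that marks damaged mitochondria for Parkin, went the opposite way to BNIP3. It had 2274, 2132 and 2613 normalised counts in shControl, 2383, 2104 and 2141 in shARNT, and 1661, 1559 and 1569 in shBMAL1. PINK1 fell by 0.55 under shBMAL1 (SE 0.09, DESeq2 adjusted p 3.16e-09) and was lower there than in shARNT (−0.47, SE 0.08, adjusted p 4.4e-08). The cargo receptor CALCOCO2 (NDP52) was lower under shARNT (−0.23, adjusted p 0.0143), a call lost without shControl replicate 2 (−0.13, adjusted p 0.189).

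**Figure D5:**
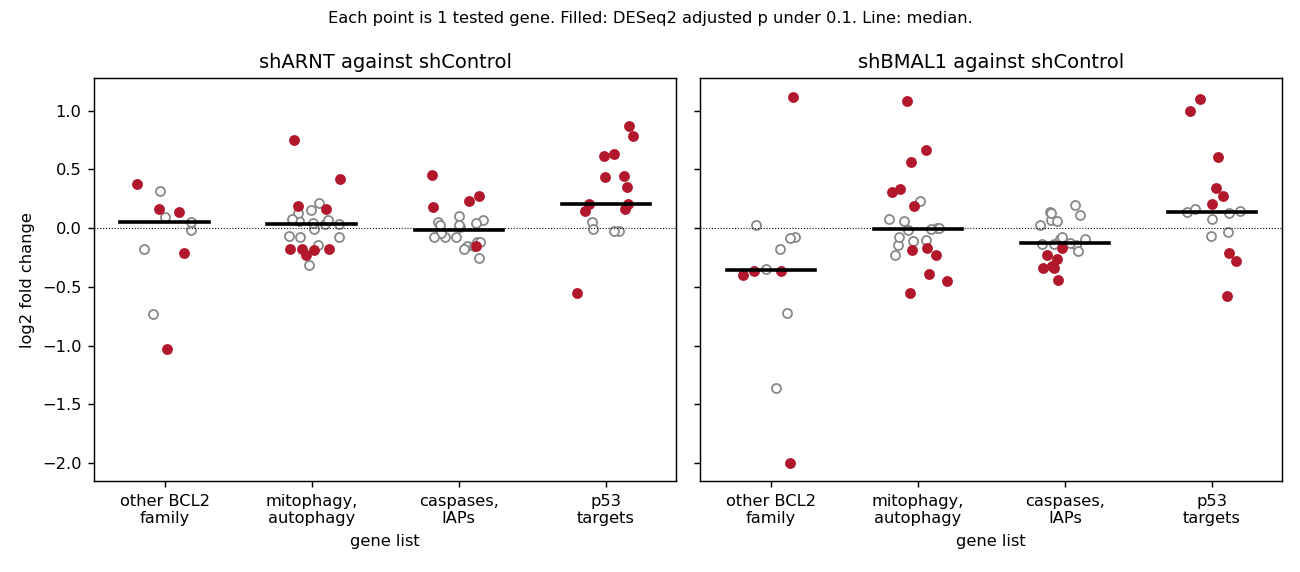
Log2 fold change (vertical axis) of each tested gene in 4 lists, other BCL2 family, mitophagy and autophagy, caspases and inhibitors of apoptosis (IAPs) with their partners and VDAC channels, and p53 targets, for shARNT (left) and shBMAL1 (right) against shControl; filled points were called at an adjusted p under 0.1, black lines are medians and the sideways spread of points has no meaning. Of 16 p53 targets, 11 were called higher under shARNT (16.5% of all genes), and of the 22 genes of the third list, 7 were called lower and 0 higher under shBMAL1 (19.4% and 17.4% of all genes).

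The widest called change of the other BCL2 family was that of BCL2L15 under shARNT (−1.03, DESeq2 adjusted p 0.0173) and of BIK under shBMAL1 (−2.00, adjusted p 0.00646), and that of the mitophagy and autophagy genes under shBMAL1 was PARK2, which encodes Parkin (1.08, adjusted p 0.0017). These 3 genes had means under 50 normalised counts, fell outside the rule for named genes and were singled out after their values were seen, and they were not refitted without single libraries.

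Downstream of the mitochondrial pore, the list of caspases, their activators and inhibitors and the VDAC channels held 22 genes, all tested. Under shARNT 1 was lower and 4 higher (19.0% and 16.5% of all genes), among them DIABLO, which antagonises IAPs (log2 fold change 0.27, SE 0.08, DESeq2 adjusted p 0.00205), and the IAP gene BIRC3 (0.23, adjusted p 0.00731). Under shBMAL1 7 were lower and 0 higher (19.4% and 17.4% of all genes). The 7 were 1 caspase (CASP10), the caspase activators APAF1 and HTRA2, the inhibitors BIRC5 and CFLAR, and the channels VDAC1 and VDAC3, of which HTRA2, BIRC5, CFLAR and VDAC1 are named to complete the count. APAF1, the scaffold of the apoptosome, had 1267, 1394 and 1410.2 normalised counts in shControl and 904, 1035 and 1065 in shBMAL1, with no overlap, and fell by 0.44 (SE 0.09, adjusted p 1.95e-05). VDAC3 was also lower (−0.34, adjusted p 0.000568), and so was CASP10 (−0.34, adjusted p 0.0425), whose call was lost without shControl replicate 1 (adjusted p 0.148) or 2 (0.13) or shBMAL1 replicate 3 (0.199).

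In shBMAL1 against shARNT, 8 of these 22 genes were lower and 2 higher (18.0% and 17.3% of all genes). VDAC1 was among those called lower (log2 fold change −0.35, DESeq2 adjusted p 6.45e-08) and was also lower under shBMAL1 than in control (−0.32, adjusted p 1.3e-06). BIRC3 was lower too (−0.31, adjusted p 0.00163), whereas against control it was not called under shBMAL1 (−0.08, adjusted p 0.529). The total of 10 called genes dropped to 6 without shARNT replicate 2 and to 6 without shARNT replicate 3. The median log2 fold change of the list was −0.02 under shARNT and −0.13 under shBMAL1, beside medians over all genes tested of 0.00285 and 0.0153.

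BBC3, PMAIP1 and BAX are textbook targets of p53, and 16 other p53 targets were set beside them. Under shARNT 11 of the 16 were higher and 1 lower, where 16.5% of all genes were higher and 19.0% lower. The 1 lower gene was the death receptor TNFRSF10B, named after its values were seen to complete the count, at −0.55 under shARNT (DESeq2 adjusted p 1.27e-26) and −0.58 under shBMAL1 (adjusted p 1.85e-19). The median log2 fold change of the list under shARNT was 0.20, and 9 in all were called with TMM size factors. Leaving out 1 library gave 8 to 11 called in all, beside 4174 to 4508 of all genes. Under shBMAL1 6 were higher and 3 lower (median 0.14), beside 17.4% and 19.4% of all genes, and in shBMAL1 against shARNT 1 was higher and 4 lower (median −0.05), beside 17.3% and 18.0%. TP53INP1, a stress protein with a part in autophagy, had 148, 146 and 158 normalised counts in shControl, 223, 305 and 245 in shARNT, and 261, 316 and 323 in shBMAL1, so that all knockdown libraries lay above the controls. It was higher by 0.78 under shARNT (SE 0.17, DESeq2 adjusted p 4.08e-05) and by 0.99 under shBMAL1 (SE 0.16, adjusted p 8.74e-09).

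ZMAT3, an RNA-binding p53 target, was likewise higher by 0.63 under shARNT (DESeq2 adjusted p 1.45e-08) and 0.61 under shBMAL1 (adjusted p 3.09e-07). The antiproliferative gene BTG2 was higher by 0.87 (adjusted p 0.0341) and 1.10 (adjusted p 0.00423) from a control mean of 30.2 counts, and its call under shARNT was lost without shControl replicate 1 (adjusted p 0.132) or shARNT replicate 3 (0.19). GDF15, a secreted stress cytokine, had 2086, 2175 and 2457 normalised counts in shControl, 3514, 3322 and 3394 in shARNT, and 2103, 2184 and 2301 in shBMAL1, so that shControl and shBMAL1 overlapped. It was higher under shARNT (0.61, adjusted p 3.48e-17), was not called under shBMAL1 (−0.03, adjusted p 0.84), and differed between the knockdowns by −0.64 (adjusted p 6.41e-18).

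SPATA18, a mediator of mitochondrial quality control, was likewise higher under shARNT (log2 fold change 0.43, DESeq2 adjusted p 9.92e-05), was not called under shBMAL1 (0.13, adjusted p 0.416), and differed by −0.30 in shBMAL1 against shARNT (adjusted p 0.0135). The death receptor FAS was lower under shBMAL1 than in control (−0.21, adjusted p 0.0278) and than in shARNT (−0.26, adjusted p 0.00709). No change from control was called for FAS in shARNT (0.05, adjusted p 0.644). Of BBC3, PMAIP1 and BAX, PMAIP1 was lower in both knockdowns, BAX lower and BBC3 higher under shBMAL1, and neither BAX nor BBC3 was called under shARNT.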

How the data were processed

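Polyadenylated RNA of 786-O cells was sequenced as 9 stranded libraries, 3 per shRNA. The values were estimated counts deposited by the authors, as total reads per gene. The study's methods give alignment to GRCh37 with SeqMan NGen and counting with ArrayStar, whereas the submitters' processing notes name STAR, DESeq2 and hg38 without a role; the annotation and the strand setting were not given in the sources used here. Reads from overlapping or copied genes may therefore have been assigned differently. A value of 0.009 stood for 0 (46.3% of cells) and was set to 0. Rows with 1 gene name were summed (53 rows merged), 6.14% of the remaining values were fractional, and sums were rounded. Library totals differed little, so depth gave all groups like precision.

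Each comparison was fitted with DESeq2 1.42.0 (R 4.3.3) on the 6 libraries of its groups over all genes, with median-of-ratios size factors, the two-sided Wald test, independent filtering and calls at an adjusted p below 0.1, after the study's own analysis. Printed normalised counts use size factors over all 9 libraries. Alternatives were edgeR 4.0.16 (quasi-likelihood, TMM), TMM size factors, a minimum of 10 counts in 3 libraries, an adjusted p under 0.05, a fit of all 9 libraries, a replicate block and leaving out each library. Code was tested on simulated data. Same-group pairs differed by a chi-square per degree of freedom of 7.18 to 16.4, so no library was a copy. Gene positions and lengths are from GENCODE on GRCh37, and promoter windows are from RefSeq (GRCh38.p14). The 10 genes and the lists were chosen with earlier results of these data known. Named list genes were up to 3 per list and comparison with the largest called change and a mean of at least 50 counts. Some genes that the rule or the marker lists name are not reported here.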

Additional observations from a re-analysis of the deposited data

How the results depend on the processing

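Of the calls for the 10 genes, those for BCL2L11, BNIP3, BAX and BID, those for PMAIP1 in both comparisons of shBMAL1 and that for BCL2 in shBMAL1 against shControl passed the threshold in every alternative run. Counts that moved by more than 1.5 times were the following. With TMM size factors 2 of the 10 genes were lower under shARNT. edgeR called 9 other BCL2 family genes under shBMAL1. The shares over all genes in the TMM and edgeR runs are not given here, so these counts are no result about the genes. Leaving out 1 library gave 1 to 2 called genes of the 10 and 0 to 1 lower under shARNT, and 2 to 3 higher in shBMAL1 against shARNT. It also gave 2 to 4 other BCL2 family genes under shARNT, 3 to 5 under shBMAL1 and 3 to 5 in shBMAL1 against shARNT, and 6 to 9 caspase and IAP genes in the last comparison. Over all genes it gave 4174 to 4508 called under shARNT, 5744 to 6347 under shBMAL1 and 5087 to 5928 in shBMAL1 against shARNT. Estimates near 0 changed sign without being called. BAX under shARNT was −0.00073 with TMM size factors and ran from −0.0085 to 0.025 on leaving out 1 library. BBC3 under shARNT ran from −0.020 to 0.16, BNIP3L under shBMAL1 from −0.012 to 0.12, and MCL1 in shBMAL1 against shARNT from −0.025 to 0.011. The cause was not tested.

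With the longest transcript as gene length, the share of BCL2L11 in the BH3-only sum was 22.3%, 33.8% and 45.6% in shControl, shARNT and shBMAL1, that of BCL2L1 among the guardians 81.4%, 81.9% and 82.9%, and that of BNIP3 in its pair 39.5% in shARNT and 43.3% in shBMAL1, and 6 of the 10 genes kept their rank in shBMAL1, where BAX passed BCL2L1 and BID (433 counts per kilobase) passed BNIP3 (401). In shControl BNIP3L moved from 3rd to 5th behind MCL1 and BID, and in shARNT BID moved from 6th to 3rd, BNIP3L from 3rd to 5th and BCL2L11 from 5th to 6th.

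The labels number the replicates alike in all groups, but same-numbered libraries did not deviate together, with correlations of −0.15 to 0.07 for shARNT and shControl, −0.15 to 0.11 for shBMAL1 and shControl and −0.01 to 0.06 for the knockdowns, so the numbers were not taken as a pairing. With the replicate number as a block, 4150 genes were called under shARNT (5374 without it), 5742 under shBMAL1 (7005) and 5388 in shBMAL1 against shARNT (6409). The block left 2 of the 10 genes higher in the last comparison, with BCL2 (adjusted p 0.147) and BBC3 (0.146) uncalled, and BBC3 was uncalled under shBMAL1 (0.114). Other BCL2 family genes called were 2 under shARNT and 3 under shBMAL1. Not every library correlated best with its own number.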
